A study of Chlorocebus aethiops with 12 samples.

Results

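RASD1 and RASD2 are a pair of related small GTPases of the Ras family, and their transcripts were followed across the 12 arrays of a study of the glucocorticoid receptor. They were taken as every probe annotated to the transcript records NM_016084 (RASD1) and NM_014310 (RASD2), which gave 2 genes of 32379 records and 4 probes of 41000. RASD1 had been picked for its response to dexamethasone in these arrays and RASD2 as its paralogue. Their dexamethasone effects are therefore given as a description with no p-value.

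RASD1, also called Dexras1 or AGS1, was described as a transcript that dexamethasone induces in mouse pituitary corticotroph cells. The protein activates inhibitory heterotrimeric G proteins without a ligand-bound receptor, and in neurons it is S-nitrosylated after the adaptor CAPON brings it to neuronal nitric oxide synthase. RASD2, or Rhes, shares the long C-terminal extension and farnesylation of RASD1, is best known from the striatum, and binds huntingtin. The glucocorticoid receptor moves to the nucleus when it binds hormone and there regulates genes through its response elements.

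The cells were COS-1, a kidney line of the African green monkey transformed with SV40, transiently transfected with V5-tagged mouse CCRP (a co-chaperone that binds nuclear receptors) and FLAG-tagged human glucocorticoid receptor (GR). The receptor carried glutamate (Y30E) or phenylalanine (Y30F) at a tyrosine of its N-terminal part, and all 4 groups of 3 arrays carried both constructs: Y30E-DEX, Y30E-DMSO, Y30F-DEX and Y30F-DMSO. Treatment began 40 h after transfection and lasted 6 h, with dexamethasone (DEX, a synthetic glucocorticoid) at 100 nM or with DMSO at 0.1% as its vehicle. Cells with the unmutated receptor, or with no transfected receptor, were not analysed here, so each effect is that of hormone in cells that overexpress a mutant receptor, and 1 label names a single construct per mutant where the descriptions name both.

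The arrays were 1-colour human whole-genome arrays on 3 slides of 4 arrays each. All Y30E-DEX arrays shared slide 3 with replicate 3 of Y30E-DMSO, and all Y30F-DMSO arrays shared slide 1 with replicate 1 of Y30F-DEX. The remaining 2 arrays of Y30E-DMSO and 2 of Y30F-DEX made up slide 2. Between 60.5% and 67.0% of the 43376 non-control spots of an array were well above background, and 0 were saturated. The labelled cell line was not checked against marker genes, because the files give record IDs without gene names. The labels do not say whether replicates were separate cultures. A p-value here therefore reflects the spread among these samples alone, and that spread may be technical. Human probes were hybridised with monkey RNA, so mismatches could dim a signal, and no probe's level is set against another's.

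The signal of RASD1 under dexamethasone was an order of magnitude above that under DMSO with either receptor. Its brighter probe, A_23_P118392, had processed signals of 6146, 7135 and 5922 on the Y30E-DEX arrays and of 398, 397 and 410 on the Y30E-DMSO arrays. With the other receptor the signals were 5781, 5548 and 6429 on the Y30F-DEX arrays and 380, 441 and 481 on the Y30F-DMSO arrays. All 6 dexamethasone arrays lay between 5548 and 7135 and all 6 DMSO arrays between 380 and 481. This gap describes the contrast on which RASD1 was picked, and the share of all features with such a gap was not counted. The probe was well above background on 12 of 12 arrays, so this probe had a measurable signal without hormone. On the log2 scale after each array was reduced by its 75th percentile, the dexamethasone effect was 3.97 ± 0.09 with Y30E and 3.82 ± 0.09 with Y30F (limma SE, n = 3 against 3). These are 15.7-fold and 14.1-fold. Over all features, limma called 2.11% with Y30E (1.49% higher and 0.619% lower) and 1.82% with Y30F (1.43% higher and 0.389% lower) at an adjusted p under 0.05. Nothing is read from RASD1 against this background because RASD1 was chosen on this contrast.

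**Figure D1:**
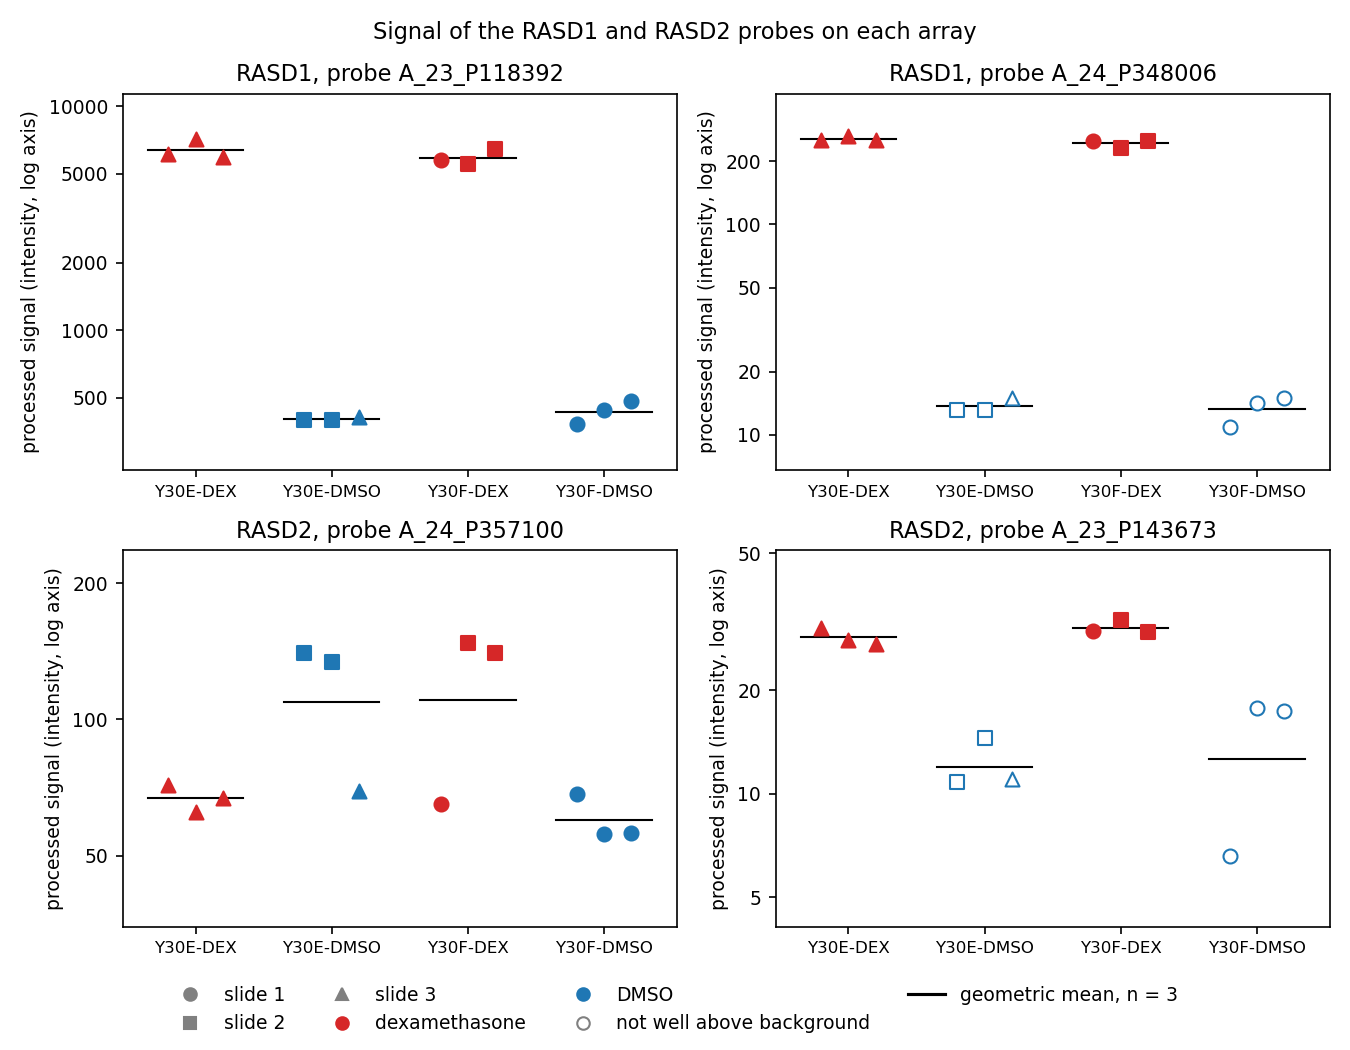
Processed signal (log axis) of each RASD1 and RASD2 probe on every array, by group. Colours give the treatment, symbols the slide, open symbols spots not well above background, and bars the geometric mean of 3 arrays. RASD1 A_23_P118392 lies at 5548 to 7135 under dexamethasone and at 380 to 481 under DMSO, while RASD2 A_24_P357100 lies at 134 to 148 on slide 2 and at 55.7 to 71.5 on the other slides.

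A second RASD1 probe, A_24_P348006, was dimmer and separated the treatments in the same way. Its signals were 252, 262 and 252 on the Y30E-DEX arrays and 13.1, 13.1 and 15.0 on the Y30E-DMSO arrays. They were 250, 231 and 248 on the Y30F-DEX arrays and 10.9, 14.2 and 15.0 on the Y30F-DMSO arrays. The probe was well above background on 6 of 6 dexamethasone arrays and on 0 of 6 DMSO arrays, so its change has only a lower bound. The filter kept this probe only through its dexamethasone arrays, so its direction is a description. It was at least 13.1-fold higher with Y30E and at least 11.9-fold higher with Y30F. Such a bound sets the mean of the dexamethasone arrays against, on each DMSO array, whichever is higher of the probe's own signal and the lowest that any probe well above background had there. On the log2 scale the bounds were 3.71 and 3.57, and under normexp background correction, whose offset shrinks dim signals, they were 2 and 2.05.

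RASD1 stood first among all features by size of the rise. In a list of 1 probe per record (20037 features), its change was the highest with either receptor, and the next was 3.17 (log2) with each. A change of at least 3 (log2) was reached by 4 features with Y30E and by 4 with Y30F. These ranks describe the measure on which RASD1 was picked.

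**Figure D2:**
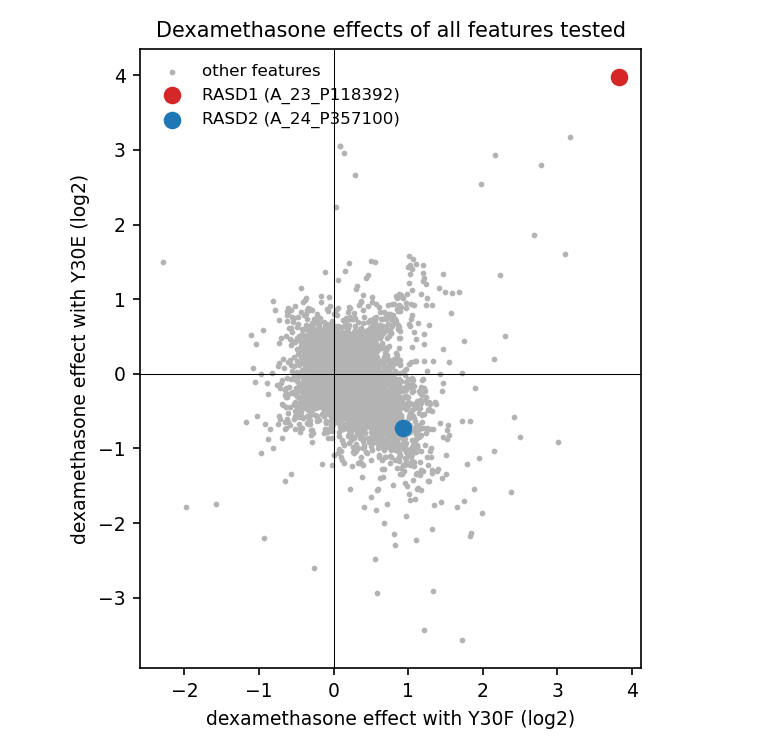
Dexamethasone effect (DEX minus DMSO, log2) with Y30E on the vertical axis and with Y30F on the horizontal axis for the 20037 features, with 1 probe per record. RASD1 is the highest point on both axes, at 3.97 and 3.82, while RASD2 lies at -0.73 and 0.93, among the features with effects of opposite sign.

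The effect of RASD1 was also read within single slides. Within slide 3, with 3 Y30E-DEX arrays and 1 Y30E-DMSO array, its effect was 4.05 (log2). Within slide 1, with 1 Y30F-DEX array and 3 Y30F-DMSO arrays, it was 3.74. Within slide 2, the Y30F-DEX arrays exceeded the Y30E-DMSO arrays by 3.83, a contrast that also changes the receptor. In the fit of group and slide together the slide terms of RASD1 did not pass (limma F test, adjusted p = 0.877), where 5.47% of features passed. Its spread within groups, a pooled SD of 0.11 (log2), was close to the median of all features, 0.10.

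Whether the receptor mutants differed in RASD1 was tested directly, since the gene was not chosen on those contrasts. The levels ran from Y30E-DEX, at 3 ± 0.11 (log2 relative to the 75th percentile, SD, n = 3), through Y30F-DEX, at 2.86 ± 0.07, and Y30F-DMSO, at -0.96 ± 0.14, to Y30E-DMSO, at -0.97 ± 0.12. Neighbours under the same treatment overlapped in signal: 5922 to 7135 on Y30E-DEX arrays against 5548 to 6429 on Y30F-DEX arrays, and 397 to 410 on Y30E-DMSO arrays against 380 to 481 on Y30F-DMSO arrays. Under dexamethasone Y30E minus Y30F was 0.14 (95% confidence interval -0.06 to 0.34, limma adjusted p = 0.530 over all features), where 0.0150% of features were called (0.00998% higher and 0.00499% lower). Under DMSO it was -0.01 (interval -0.21 to 0.19, limma adjusted p = 0.973), where 0.00998% were called. The dexamethasone effect with Y30E minus that with Y30F was 0.15 (interval -0.13 to 0.43, limma adjusted p = 0.735), where 0% of features were called. With slide as a block these became 0.22 (interval -0.16 to 0.61), -0.09 (-0.47 to 0.30) and 0.31 (-0.10 to 0.72), with limma adjusted p of 0.993, 0.926 and 1.00. The dimmer probe gave 0.10 under dexamethasone (interval -0.12 to 0.32, limma adjusted p = 0.702). Its SE of 0.10 draws on DMSO spots not well above background. That SE was 0.05 with the compared groups alone and 0.06 without Y30F-DMSO replicate 1, with limma adjusted p of 0.482 and 0.474. These p-values do not show that the mutants act alike: the intervals reach a difference of 0.43 in the effect without the block and of 0.72 with it.

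RASD2 gave a different picture on each of its probes. The brighter one, A_24_P357100, had signals of 71.5, 62.5 and 67.0 on the Y30E-DEX arrays and of 140, 134 and 69.4 on the Y30E-DMSO arrays. It had 65.1, 148 and 140 on the Y30F-DEX arrays and 68.4, 55.7 and 56.2 on the Y30F-DMSO arrays. The treatments overlapped with each receptor, and slide 2 did not overlap the other slides: the 4 arrays of slide 2 lay between 134 and 148, and the 8 arrays of slides 1 and 3 between 55.7 and 71.5. The share of all features with such a gap between slides was not counted. The 4 arrays of slide 2 are 2 of dexamethasone with Y30F and 2 of DMSO with Y30E. All 12 spots were well above background, with a reported error of 10.4% to 13.1% of the signal, which covers the measurement of a spot and not the spread between samples.

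Over all arrays, A_24_P357100 differed by -0.73 ± 0.37 with Y30E and by 0.93 ± 0.37 with Y30F (log2, DEX minus DMSO, limma SE, n = 3 against 3). Within slide 3 the Y30E effect was 0.04, and within slide 1 the Y30F effect was 0.12. The fit with slide as a block must give the same values in this layout of groups over slides, so it is no separate check. Its SE made them 0.04 ± 0.16 and 0.12 ± 0.16. Within slide 2, Y30F-DEX minus Y30E-DMSO was -0.01. The confidence intervals of the blocked effects, -0.32 to 0.40 with Y30E and -0.24 to 0.49 with Y30F, lie far below the effects of RASD1. They do not show that RASD2 did not change, and each rests on a single Y30E-DMSO or Y30F-DEX array.

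**Figure D3:**
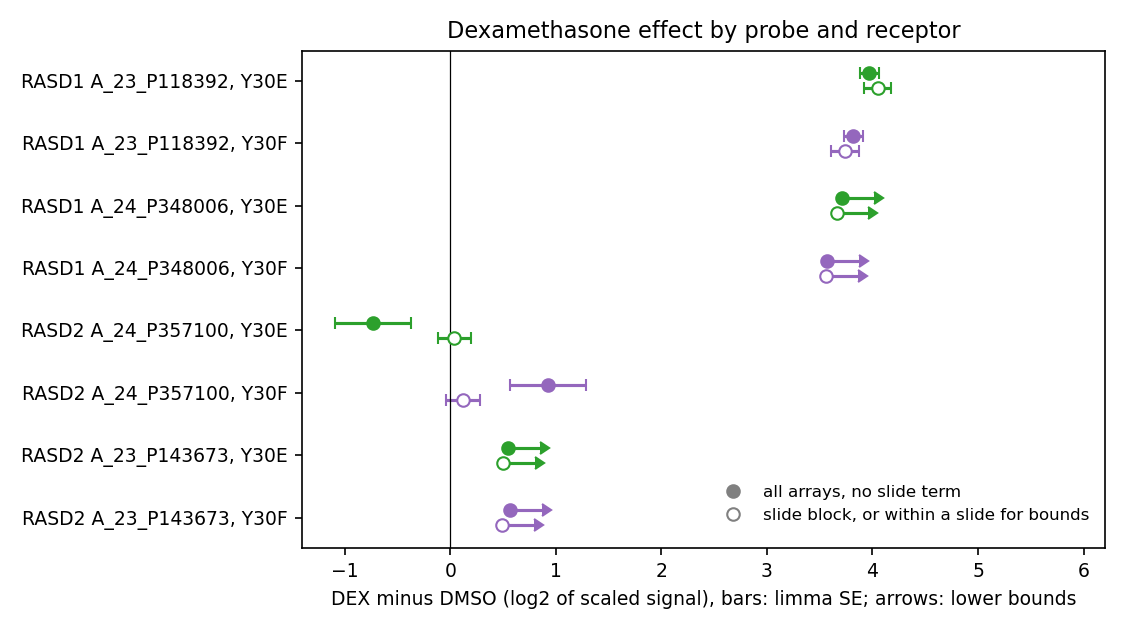
Dexamethasone effect (DEX minus DMSO, log2 of scaled signal) of each probe with each receptor. Filled points use all arrays with no slide term, open points use slide as a block or arrays of 1 slide, bars are limma's SE, and arrows mark lower bounds for probes not well above background under DMSO. Both RASD1 probes lie at or beyond 3.56 in every row, and RASD2 A_24_P357100 moves to 0.04 with Y30E and 0.12 with Y30F once slide is accounted for.

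The offset of slide 2 at this RASD2 probe was singled out after its values had been seen, and is given as a description. The probe's slide terms passed (limma F test, adjusted p = 0.00219) in the fit where those of RASD1 did not. In that fit 5.47% of features passed, and this p-value, from values already seen, adds nothing to the description. Slide 2 exceeded the other slide by 1.22 (log2, 2.33-fold) within Y30F-DEX and by 1.15 (2.22-fold) within Y30E-DMSO. Each of these values sets 2 arrays against 1. An offset of more than 1 in both divided groups was seen in 215 of 20021 features with a value on every array needed (1.07%), and 134 features were offset at least as much as RASD2 in both. The median offset of all features was 0.02 in Y30F-DEX and 0.01 in Y30E-DMSO. RASD1 had offsets of 0.12 in both groups.

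**Figure D4:**
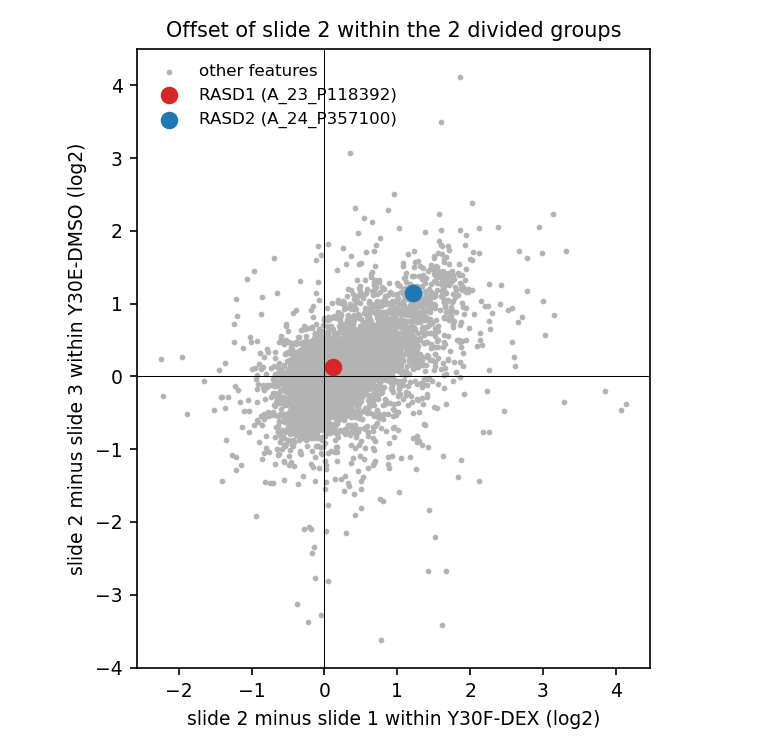
Difference (log2) between arrays of slide 2 and arrays of the other slide within the divided groups, with Y30E-DMSO on the vertical axis and Y30F-DEX on the horizontal axis. Grey points are the features tested. RASD2 A_24_P357100 lies at 1.15 and 1.22, in a tail of features offset in both groups, and RASD1 lies at 0.12 on both axes.

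The receptor contrasts of RASD2 are given with the slides of their arrays. Under DMSO, Y30E exceeded Y30F by 0.96 (log2, interval 0.15 to 1.77, limma adjusted p = 0.287), with 2 of the 3 Y30E-DMSO arrays on slide 2. Under dexamethasone Y30E minus Y30F was -0.70 (interval -1.51 to 0.12, limma adjusted p = 0.436), with 2 of the 3 Y30F-DEX arrays on slide 2. The difference of the dexamethasone effects, Y30E minus Y30F, was -1.66 ± 0.52 (limma adjusted p = 0.327, unadjusted p = 0.00914). With slide as a block the 3 values were 0.13, 0.05 and -0.08, and none passed. The levels ran from Y30E-DMSO, at -2.85 ± 0.67 (log2 relative to the 75th percentile, SD, n = 3), through Y30F-DEX, at -2.88 ± 0.72, and Y30E-DEX, at -3.57 ± 0.12, to Y30F-DMSO, at -3.81 ± 0.19. Each pair of neighbours in this order overlapped in signal. Without Y30F-DEX replicate 1, the single array of that group outside slide 2, the difference was -2.06 and passed (limma adjusted p = 0.0198). In that setting 1130 of 20037 features passed (57 higher and 1073 lower), against 0 with all arrays.

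The dimmer RASD2 probe, A_23_P143673, separated the treatments. It had 30.3, 28.0 and 27.2 on the Y30E-DEX arrays and 10.8, 14.5 and 11 on the Y30E-DMSO arrays. It had 29.7, 31.9 and 29.6 on the Y30F-DEX arrays and 6.57, 17.7 and 17.4 on the Y30F-DMSO arrays. All 6 dexamethasone arrays, from 27.2 to 31.9, lay above all 6 DMSO arrays, from 6.57 to 17.7. How large a share of all probes separates the treatments this way was not counted. The probe was well above background on every dexamethasone array and on 0 of 6 DMSO arrays, and the reported error reached 95.7% of the signal on Y30F-DMSO replicate 1. It was at least 1.46-fold higher with Y30E and at least 1.48-fold higher with Y30F, and within slides 3 and 1 the bounds were 1.42-fold and 1.40-fold. With normexp they were 0.29 and 0.27 on the log2 scale, against 0.55 and 0.57 in the scaling used here, and with quantile normalization the bound with Y30F was 0.29. Under dexamethasone it differed between the mutants by -0.06 (Y30E minus Y30F, interval -0.79 to 0.67, limma adjusted p = 0.955). Its SE of 0.33 draws on DMSO spots not well above background, and was 0.09 with the compared groups alone and 0.16 without Y30F-DMSO replicate 1, with limma adjusted p of 0.807 and 0.892.

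The change of the brighter RASD2 probe was set beside the lower bound of the dimmer one. Over all arrays with Y30E, the brighter probe had -0.73 and the dimmer one at least 0.55 (log2). With Y30F the brighter probe had 0.93 and the dimmer one at least 0.57, so the bound shows no disagreement there. Within slides, the brighter probe had 0.04 with Y30E and 0.12 with Y30F, and the bounds of the dimmer one were 0.50 and 0.49. The blocked interval of the brighter probe with Y30F reaches 0.49 as well. Of 4393 records with 2 or more kept probes, 0.296% had probes at least as far apart with Y30E over all arrays. Within slides the shares were 5.05% with Y30E and 12.5% with Y30F. For other records these shares use fitted changes and not bounds. The dimmer probe was kept only through its dexamethasone arrays, so its direction is a description. Over the 12 arrays the dimmer RASD2 probe had a Pearson correlation of 0.881 with the brighter RASD1 probe and of 0.126 with the other RASD2 probe, and the RASD1 probes had one of 0.999 with each other. These correlations describe points that fall into 2 treatments on shared arrays. The RASD1 signal, far higher under dexamethasone, moved with the dimmer RASD2 probe, and the part of RASD1 RNA in that probe's signal was not tested.

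Features whose values ran most like RASD1 were sought among the 44 features with a mean dexamethasone effect of at least 1 (log2) over both receptors. The highest Pearson correlations with RASD1 over the 12 arrays were 0.997 for NM_015193 and 0.993 for NM_001008540, and the 10 highest lay between 0.968 and 0.997. NM_015193 had effects of 2.80 with Y30E and 2.79 with Y30F, and NM_001008540 had 1.34 and 1.19. Both are smaller than the effect of RASD1, as are those of all other features. The correlation measures the shape over the arrays and not the size. The files do not pair these records with gene names. The limit of at least 1 already favours features that share the gap between treatments, and correlations within a treatment were not computed. With Spearman's correlation, which uses ranks alone, 4 of the 10 were the same. The 5 features most like RASD2 A_24_P357100 had correlations of 0.985 to 0.991. That choice by correlation already favours features that were higher on slide 2.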

How the data were processed

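The deposited intensity values are the processed green signals of Agilent Feature Extraction 12.0.0.7, with the background already subtracted and spatial trends removed, and with no scaling across arrays, per the file headers. The authors' series table held the same intensities, with 0 of 540180 values different. Per the labels' protocols, 500 ng of total RNA per sample was labelled with Cy3. Deposited flags of the spots, such as well above background, are 0 or 1 scores of Feature Extraction, per the file headers.

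From log2 of each signal the array's own 75th percentile (non-control spots) was subtracted. Outlier spots, 89 to 154 on an array, were dropped, and none was a RASD1 or RASD2 spot. Probes well above background on all arrays of a group were kept (25570, all 4 of the members included), and the brightest probe of a record gave 20037 features. The members' second probes came from a fit over all kept probes. The test was limma 3.58.1 (R 4.3.3) on 4 group means over 12 arrays, Benjamini-Hochberg adjusted over all features, with 0.05 as threshold and 5 comparisons. The mean signal is not among the columns, so normexp used the median signal. The number of arrays limits the precision. The fit was tested on simulated data. These had independent normal noise and no slide offset, so that test does not cover the slides of the real arrays.

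The named features follow a rule by correlation with RASD1 and RASD2, of which at most 2 record IDs are printed. The members and lists were chosen with earlier results of these data known. Lists of 126 gene symbols (Ras-family GTPases, RASD partners, G protein subunits, RGS proteins, glucocorticoid targets and cell markers) could not be used, since 0 matched the files' record IDs. The within-slide values and the slide test were chosen after seeing the data.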

Additional observations from a re-analysis of the deposited data

How the results depend on the processing

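RASD1 kept its sign in all alternatives of the dexamethasone effect, between 3.77 and 4.05 with Y30E and between 3.64 and 3.87 with Y30F (25 each). Many of these cannot move the estimate, such as the series table, the filters, the replicate block and leaving out arrays of the other receptor. The slide block, leaving out slide 2 and single slides are the same comparison in this layout. The effect of RASD1 moved by more than the replicate SD only with normexp (3.77 and 3.64) and, with Y30F, with median centring (3.69), which shifts the median feature by -0.11 there and by -0.16 for Y30E minus Y30F under DMSO. For RASD2 the slide block, leaving out slide 2 and single slides gave 0.04 (Y30E, a change of sign) and 0.12 (Y30F). Leaving out single arrays gave -1.11 to -0.50 and 0.66 to 1.34. Y30E minus Y30F changed sign for RASD1 under DMSO with normexp (0.02) and over single arrays left out (-0.09 to 0.04), and for RASD2 under dexamethasone with the slide block (0.05) and without slide 2 (0.12). For the dimmer RASD2 probe that last contrast was 0.05 with normexp, 0.25 with the slide block, 0.02 without slide 2 and -0.12 to 0.03 without single arrays. None of these passed. The RASD2 difference of effects ran from -2.06 to -1.39 without single arrays and passed only without Y30F-DEX replicate 1, where 1130 features were called. The lower bounds of the dimmer RASD1 probe ran from 2 to 3.88 with Y30E and from 2.05 to 3.73 with Y30F, lowest with normexp, and those of the dimmer RASD2 probe from 0.29 to 0.71 and from 0.27 to 0.73.

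The background of calls depended more on the processing, and the cause was not tested. Features called for the effect with Y30E numbered 423, but 259 with no filter, 182 with the slide block, 71 without slide 2 and 184 to 596 without single arrays (highest without Y30E-DMSO replicate 3). With Y30F they numbered 365, but 120 with the slide block, 39 without slide 2, 137 with the compared groups alone and 207 to 1367 without single arrays (highest without Y30F-DEX replicate 1). For the difference of the effects limma called 0 (2255 at an unadjusted p under 0.05), but 1 with median centring, 18 with the slide block, 3 without slide 2, 1 with the replicate block and 0 to 1130 without single arrays (without Y30E-DMSO replicate 3 there were 125, and 1130 lacking replicate 1 of Y30F-DEX). Under DMSO 2 were called, but 1578 with median centring (199 higher and 1379 lower), 0 with quantile normalization (2502 unadjusted), 1 with normexp, 4 with no filter, 0 with the filter on all 12 arrays, 67 without slide 2, 0 with the replicate block, 165 with the compared groups alone and 0 to 598 without single arrays (598 without Y30F-DEX replicate 1). Under dexamethasone 3 were called, but 6 with median centring, 0 with normexp, 1 with no filter, 0 with the filter on all arrays, 19 with the slide block, 0 with slide as a random block, the replicate block, all probes or the compared groups alone, and 0 to 66 without single arrays (66 lacking replicate 3 of Y30E-DMSO, 65 lacking replicate 1 of Y30F-DEX).

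Replicate numbers share no stated source, and the correlation of same-numbered deviations ran from -0.432 to 0.271 over 18 pairs of arrays, over 0.1 in 2. With the replicate block RASD1 had effects of 3.97 and 3.82 and RASD2 of -0.73 and 0.93, with no call of either gene changed, and 308 and 272 features were called. Gene-list alternatives were not run, since no list matched the files. Dim signals limit the second probes, whose dexamethasone effects had only bounds.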
